A study of Homo sapiens with 6 samples.

Results

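The genes described here are 50 that encode the DNA replication machinery, from the origin recognition complex to the enzymes that make DNA precursors. They were picked by symbol, with earlier results of these data already known. All 50 were found among the 28862 genes of the deposited count table, and all 50 were among the 15829 genes that reached the minimum read level for testing. RNA-seq of mRNA from the human neuroblastoma line SH-SY5Y gave 3 libraries labelled SMN1 overexpression and 3 libraries labelled control plasmid. The comparison asks how transcript levels change when SMN1, whose product helps to assemble spliceosomal small nuclear ribonucleoproteins, is overexpressed in this line. Both groups are the same line. The vector, its promoter, the time after transfection, and whether the cells were pooled or cloned are not given in the sources. The labels do not say that replicates are separate cultures, and p-values then reflect only how far these 6 libraries spread, which may be technical. The labels name no batch, and a batch that coincided with the groups cannot be told apart from them.

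Replication origins are licensed in G1, when the origin recognition complex, CDC6 and CDT1 load the ring-shaped MCM2-7 complex onto DNA, and geminin, encoded by GMNN, blocks CDT1 afterwards. In S phase CDC45 and the GINS complex join MCM2-7 to form the active helicase, polymerase alpha-primase lays down primers, and polymerases epsilon and delta extend them on the PCNA clamp, which replication factor C loads. Most of these genes are transcribed as cells pass from G1 into S phase, in large part through E2F factors that the retinoblastoma protein family holds in check. In neuroblastoma their transcripts are widely used as readouts of proliferation.

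The gene named in the labels did not match them. SMN1 had 14.8, 16.6 and 16.6 CPM in the SMN1-labelled libraries, against 20.04, 20.4 and 19.6 CPM in the control plasmid libraries (CPM are read counts scaled by TMM-adjusted library size), and its log2 fold change was -0.32 (edgeR adjusted p = 9.4e-05). SMN2, its near-identical copy with which reads can be split, averaged 7.63 ± 0.427 CPM in the SMN1-labelled group and 9.4 ± 0.358 CPM in the control plasmid group (mean ± SD, n = 3 libraries in each group, here and below). Its log2 fold change was -0.30 (edgeR adjusted p = 0.0031). Both genes were therefore lower, not higher, in the libraries labelled SMN1 overexpression, and every direction below is between libraries as they are labelled. Whether the labels of the groups were exchanged, or whether plasmid transcripts went uncounted at SMN1, could not be tested with the values used here. Library totals were 31740870 to 40275498 reads in the SMN1-labelled libraries and 30379242 to 31286361 reads in the control plasmid libraries. Of 14 adrenergic neuroblast markers, 13 passed the filter, 7 were called lower and 5 higher, and the summed level of the list was 34396 to 35628 CPM in the SMN1-labelled group and 27178 to 28983 CPM in the control plasmid group. TH, the enzyme that opens catecholamine synthesis, had at most 9 reads in a library. Of 5 mesenchymal markers 4 passed, 2 were called lower and none higher, and the summed level of the list was 35.2 to 37.1 CPM in the SMN1-labelled group and 87.3 to 93.8 CPM in the control plasmid group, with COL1A2 at 0 to 10 reads. Summed Schwann cell markers were at 1.92 to 2.09 CPM in the SMN1-labelled group and 3.36 to 4.75 CPM in the control plasmid group, and summed epithelial and leukocyte markers at 2.33 to 2.91 CPM in the SMN1-labelled group and 3.96 to 5.1 CPM in the control plasmid group. SOX10 and CD3E had no row in the table, and the part of these marker differences in the results below was not tested.

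Most of the replication genes had lower transcript levels where the label was SMN1. At an edgeR adjusted p of at most 0.05, 35 of the 50 members were called lower, 2 were called higher and 13 were not called. Over all 15829 tested genes, 28.2% were called lower and 28% higher. The median log2 fold change of the 50 members was -0.26, and 43 of the 50 lay below zero, whereas the median over all tested genes was 0.00087 and 49.9% lay below zero. For 34 members every SMN1-labelled library was below every control plasmid library, against 30.2% of all tested genes. For 4 members every SMN1-labelled library was above, against 30.4% of all tested genes. The decreases were moderate: the lowest log2 fold change was -0.83, for TK1. In bulk RNA, fewer cells in S phase and less RNA per cell cannot be told apart.

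Summed over the 50 genes, the transcripts had 4367 ± 23.3 CPM in the SMN1-labelled group and 5338 ± 35.3 CPM in the control plasmid group (SD, n = 3 each). The SMN1-labelled sum was 18.2% below the control plasmid sum, and the libraries of each group lay close together, so that the gap was many times the spread within a group. The sums differed by role. That of the 2 Okazaki fragment genes was 28.1% lower, that of the 2 E2F activators among the 50, E2F1 and E2F2, 25.6%, that of MCM2-7 22.9% and that of helicase activation 19.8%. E2F3, a further activator outside the 50, was called higher, at 61.8 CPM in the SMN1-labelled group and 50.04 CPM in the control plasmid group. The genes for maintenance methylation and histone mRNA had a sum 7.28% lower, and the other 7 roles had sums 13.7% to 16.8% lower. A sum can follow a single gene. In the origin recognition complex, 13.7% lower, ORC6 gave 57.7 of 127 CPM in the SMN1-labelled group and 81.5 of 147 CPM in the control plasmid group, while ORC2 was called higher. In helicase loading, CDT1 averaged 27 CPM in the SMN1-labelled group and 45.8 CPM in the control plasmid group, but CDC6 75.1 and 76.1 CPM. On the deposited FPKM, 28 members were called lower and 4 higher, with a pseudocount of 0.1 and also with 1 (limma, log2 scale). Of all 12711 genes tested on that scale 23.7% were called lower, and 39.4% were called higher with a pseudocount of 0.1 and 39.5% with 1. On that scale 62.5% of all calls were higher, against 49.8% on counts. The FPKM were scaled by gene length and depth, and no TMM factors were applied to them here. On counts those factors were 1.026 to 1.036 in the SMN1-labelled libraries and 0.956 to 0.976 in the control plasmid libraries. On FPKM the median log2 fold change of all genes was 0.087 with a pseudocount of 0.1 and 0.062 with 1. How far this shift changed single calls was not tested.

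**Figure D1:**
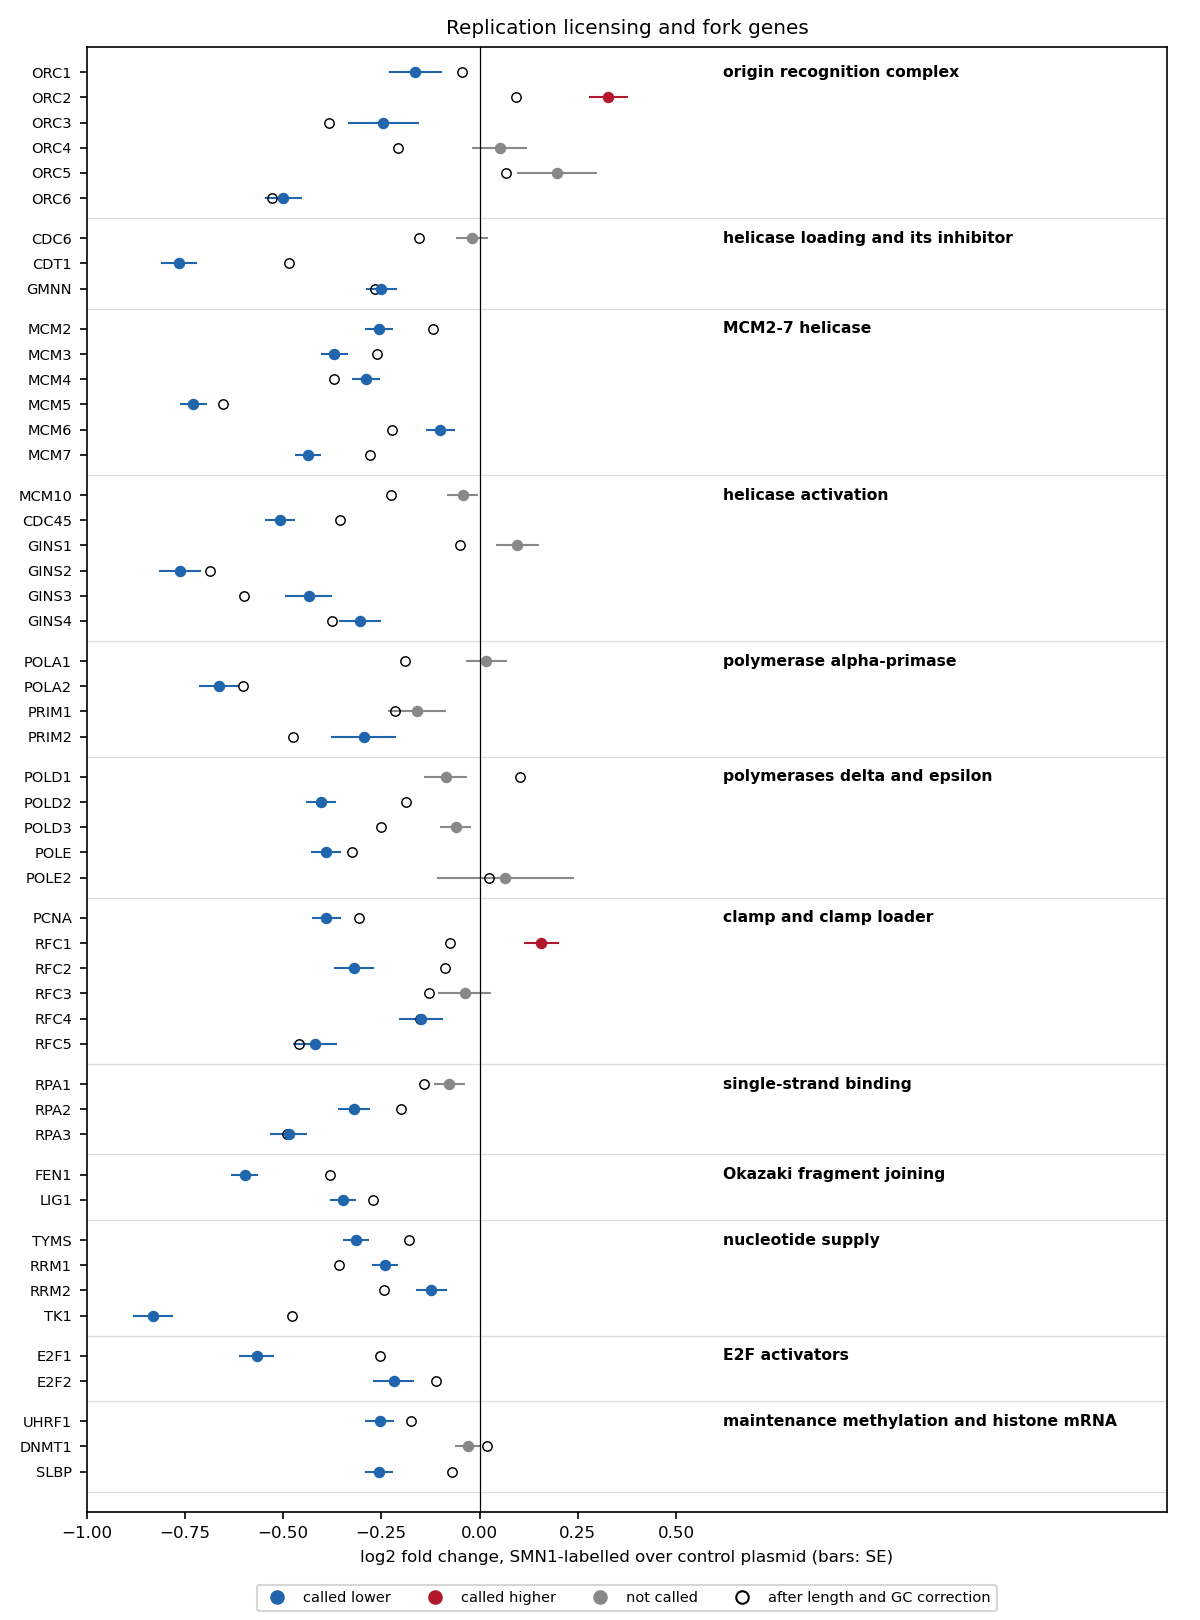
Log2 fold change of each of the 50 genes, SMN1-labelled over control plasmid libraries (horizontal axis), grouped by role. Filled points are edgeR fits with bars of 1 SE, coloured by call. Open points are the same genes after correction for gene length and GC content. Of the filled points 35 are called lower and 2, ORC2 and RFC1, higher. After correction none is called higher.

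Since so many of the genes were lower together, the sequence before their transcription starts was searched for letters that E2F factors are known to bind: TTTCCCGC, TTTCGCGC, TTTGCCGC and TTTGGCGC, on both strands, where matches on opposite strands may share bases. RefSeq promoters on GRCh38.p14 were matched for 44 of the 50 members, and MCM4, MCM5, GINS4, POLD3, RPA2 and RPA3 had none in the table. In the 250 bases before the start, at least 1 match was present in 16 of 44 members, or 36.4%. Of all 35116 promoters in the table, 2.79% held one, and of 10995 promoters of tested genes 4.41% did. Among members called lower the count was 14 of 30, and among the others it was 2 of 14, RFC3 and POLA1. MCM6 had the most matches, 4, which overlap in pairs. CCAAT on either strand was present in 24 of 44 members, or 54.5%, against 32.0% of all promoters and 35.0% of those of tested genes. It was in 16 of 30 members called lower and in 8 of the other 14. A match is a run of letters and not a measured binding site. The list includes genes long known as E2F targets, so these shares are descriptions and were not tested.

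The 6 called members with the smallest adjusted p and at least 1 match on a chromosome other than 8 are shown to let the letters be seen in place. Each line gives the 250 bases before the RefSeq start, 5′ to 3′ on the gene's strand, with the E2F letters or their reverse complement in capitals. The start is that of the RefSeq entry used for each gene, and other annotated starts were not used. The GENCODE v29 spans of these genes, given below, begin further upstream. They hold the whole window of CDT1, GINS2 and MCM7 and part of that of POLA2, E2F1 and MCM3.
CDT1 (chr16:88803539-88803788, plus strand): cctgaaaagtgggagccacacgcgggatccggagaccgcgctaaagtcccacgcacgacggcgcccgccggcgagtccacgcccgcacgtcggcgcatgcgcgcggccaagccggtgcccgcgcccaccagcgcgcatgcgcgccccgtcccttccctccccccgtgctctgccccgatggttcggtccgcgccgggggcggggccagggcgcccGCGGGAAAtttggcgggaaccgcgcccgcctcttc
GINS2 (chr16:85688955-85689204, minus strand): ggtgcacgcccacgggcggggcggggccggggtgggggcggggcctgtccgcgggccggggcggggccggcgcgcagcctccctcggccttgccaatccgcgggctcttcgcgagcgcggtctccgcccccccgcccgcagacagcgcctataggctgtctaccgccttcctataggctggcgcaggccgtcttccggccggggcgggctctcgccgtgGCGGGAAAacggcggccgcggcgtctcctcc
MCM7 (chr7:100101398-100101647, minus strand): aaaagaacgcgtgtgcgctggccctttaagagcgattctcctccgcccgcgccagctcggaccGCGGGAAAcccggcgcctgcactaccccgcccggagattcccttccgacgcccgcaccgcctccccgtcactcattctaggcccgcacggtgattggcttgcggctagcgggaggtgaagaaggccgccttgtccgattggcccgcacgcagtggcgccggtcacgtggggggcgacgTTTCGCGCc
POLA2 (chr11:65261712-65261961, plus strand): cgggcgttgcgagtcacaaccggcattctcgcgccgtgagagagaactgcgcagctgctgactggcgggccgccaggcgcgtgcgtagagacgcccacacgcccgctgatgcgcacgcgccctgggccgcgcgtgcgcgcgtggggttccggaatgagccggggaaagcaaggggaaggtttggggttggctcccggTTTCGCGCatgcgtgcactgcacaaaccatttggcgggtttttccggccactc
E2F1 (chr20:33686386-33686635, minus strand): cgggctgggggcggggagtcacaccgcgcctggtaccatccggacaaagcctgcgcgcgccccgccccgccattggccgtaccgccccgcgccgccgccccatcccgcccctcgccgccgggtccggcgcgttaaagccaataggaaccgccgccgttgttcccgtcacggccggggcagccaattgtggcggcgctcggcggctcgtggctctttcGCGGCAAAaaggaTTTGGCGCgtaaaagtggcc
MCM3 (chr6:52284743-52284992, minus strand): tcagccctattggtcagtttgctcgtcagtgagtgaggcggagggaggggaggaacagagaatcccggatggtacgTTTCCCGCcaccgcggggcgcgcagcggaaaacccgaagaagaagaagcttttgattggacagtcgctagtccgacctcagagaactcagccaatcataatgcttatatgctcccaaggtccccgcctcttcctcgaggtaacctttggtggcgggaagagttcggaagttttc
The match began 35 bases before the start in CDT1, 31 in GINS2 and 53 in POLA2, and 174 bases before it in MCM3. MCM7 had matches at 187 and 9 bases, and E2F1 at 33 and 20 bases. Values by library for all 6 genes follow under their roles.

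The origin recognition complex marks origins and stays bound to chromatin through much of the cell cycle, and its genes did not move as a block. Of 6 genes 3 were called lower (ORC1, ORC3 and ORC6), 1 was called higher (ORC2) and 2 were not called (ORC4 and ORC5), with a median log2 fold change of -0.056. ORC6 (chr16:46689643-46698394, plus strand, the whole gene in GENCODE v29 on GRCh38, as for all genes below), the most loosely bound subunit, had 53.3, 58.8 and 60.9 CPM in the SMN1-labelled libraries, against 83.1, 84.1 and 77.4 CPM in the control plasmid libraries. The groups did not overlap, and ORC6 was 1.41-fold lower (log2 fold change -0.50 with SE 0.046, edgeR adjusted p = 2.9e-09). ORC2 (chr2:200908973-200963680, minus strand) had 28.2, 28 and 27.4 CPM in the SMN1-labelled libraries, against 21.8, 22.4 and 22.4 CPM in the control plasmid libraries. Again the groups did not overlap, but ORC2 was 1.26-fold higher (edgeR adjusted p = 4.96e-06), a call that was lost after the length and GC correction (log2 fold change 0.093, edgeR adjusted p = 0.115). ORC1, the cell cycle-regulated subunit, averaged 14.8 ± 1.32 CPM in the SMN1-labelled group and 16.6 ± 0.403 CPM in the control plasmid group. ORC3 averaged 7.51 ± 0.773 CPM in the SMN1-labelled group and 8.88 ± 0.616 CPM in the control plasmid group. The libraries of the groups overlapped for both, and their log2 fold changes of -0.16 and -0.24 had edgeR adjusted p of 0.0431 and 0.0242. Both calls were lost with DESeq2, on FPKM, and when control plasmid library 1 or 2 or SMN1-labelled library 1 or 2 was left out, with edgeR adjusted p up to 0.194 for ORC1 and 0.112 for ORC3. ORC4 averaged 13.1 ± 0.655 CPM in the SMN1-labelled group and 12.7 ± 0.608 CPM in the control plasmid group. It was called lower after the length and GC correction (log2 fold change -0.21, edgeR adjusted p = 0.0143). ORC5 averaged 5.95 ± 0.552 CPM in the SMN1-labelled group and 5.18 ± 0.245 CPM in the control plasmid group, and it was called higher on FPKM after the filter on low values, and in no other alternative.

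Helicase loading was uneven as well. CDT1 (chr16:88803213-88809258, plus strand), the loading factor that is destroyed once S phase begins, had 28.2, 27.1 and 25.6 CPM in the SMN1-labelled libraries, against 46.4, 44.9 and 46.3 CPM in the control plasmid libraries. No library of a group came near the other group, and CDT1 was 1.7-fold lower (log2 fold change -0.76 with SE 0.046, edgeR adjusted p = 2.15e-12). GMNN (chr6:24774931-24786099, plus strand), its inhibitor, had 55.2, 58.5 and 58.9 CPM in the SMN1-labelled libraries, against 67.2, 68.4 and 69.7 CPM in the control plasmid libraries. It was 1.19-fold lower without overlap (log2 fold change -0.25, edgeR adjusted p = 1.02e-05). CDC6 (chr17:40287633-40304657, plus strand), the ATPase that works with CDT1, had 71.8, 76.9 and 76.5 CPM in the SMN1-labelled libraries, against 77.1, 77.9 and 73.4 CPM in the control plasmid libraries. Its groups overlapped and it was not called (log2 fold change -0.02, edgeR adjusted p = 0.699), although it was called lower after the length and GC correction (log2 fold change -0.15, edgeR adjusted p = 0.00142).

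The balance of CDT1 and its inhibitor was read within each library as the ratio of their deposited FPKM. CDT1 over GMNN was 0.458, 0.415 and 0.39 in the SMN1-labelled libraries, against 0.619, 0.589 and 0.595 in the control plasmid libraries. The 3 SMN1-labelled ratios were all below the 3 control plasmid ratios, and the log2 ratio differed by -0.52 (exact permutation test, two-sided, p = 0.1, the smallest that 3 against 3 allows). Leaving out 1 library gave differences between -0.58 and -0.46. The ratio carries no correction for composition. After the length and GC correction of counts, the log2 fold changes were -0.48 for CDT1 and -0.27 for GMNN, closer together than the -0.76 and -0.25 on uncorrected counts.

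All 6 genes of the MCM2-7 helicase were called lower, and in each the groups did not overlap in CPM. MCM5 (chr22:35400063-35425430, plus strand), the subunit at the gate through which the ring opens, moved most. It had 108, 105 and 111 CPM in the SMN1-labelled libraries, against 180.2, 179.7 and 178 CPM in the control plasmid libraries. That is 1.66-fold lower (log2 fold change -0.73 with SE 0.035, edgeR adjusted p = 4.59e-14). MCM7 (chr7:100092728-100101940, minus strand), part of the catalytic core, had 312, 316 and 305 CPM in the SMN1-labelled libraries, against 419, 418 and 426 CPM in the control plasmid libraries. It was 1.35-fold lower (log2 fold change -0.44, edgeR adjusted p = 8.04e-11). MCM3 (chr6:52264009-52284881, minus strand), the most abundant of the 6 transcripts per length, had 517, 516 and 497 CPM in the SMN1-labelled libraries, against 656, 639.9 and 681 CPM in the control plasmid libraries. It was 1.29-fold lower (log2 fold change -0.37, edgeR adjusted p = 2.58e-09).

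On counts the remaining subunits of the ring moved less. MCM4 (chr8:47960185-47978160, plus strand), which carries a regulatory tail phosphorylated at origin firing, had 161, 168 and 176 CPM in the SMN1-labelled libraries, against 208, 207 and 201 CPM in the control plasmid libraries. It was 1.22-fold lower (log2 fold change -0.29, edgeR adjusted p = 3.82e-07), and after the length and GC correction its log2 fold change was -0.37, against -0.28 for MCM7 and -0.26 for MCM3. MCM2 (chr3:127598223-127622436, plus strand), which also binds histones, had 177, 178 and 173 CPM in the SMN1-labelled libraries, against 217, 209 and 204 CPM in the control plasmid libraries. It was 1.19-fold lower (log2 fold change -0.26, edgeR adjusted p = 1.23e-06), or -0.12 on the log2 scale after the length and GC correction, and 23.6% of its exon bases overlap genes on the opposite strand. MCM6 (chr2:135839626-135876426, minus strand), which contacts CDT1 during loading, had 94, 99.7 and 99.4 CPM in the SMN1-labelled libraries, against 103, 104 and 106 CPM in the control plasmid libraries. The gap between its groups was narrow, and it was 1.07-fold lower (log2 fold change -0.10, edgeR adjusted p = 0.0241). Its call was lost without control plasmid library 2, control plasmid library 3 or SMN1-labelled library 1 (edgeR adjusted p = 0.0538, 0.0714 and 0.1002), with no filter on low counts, and on FPKM, where its log2 fold change came as close to zero as -0.012. The length and GC correction moved it the other way, to -0.22 (edgeR adjusted p = 7.98e-06).

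Because the 6 proteins work as a ring with 1 copy of each, their transcripts were also compared per length, as shares of the summed MCM2-7 FPKM within a library. MCM5 made up 4.79% ± 0.189 in the SMN1-labelled libraries and 6.15% ± 0.128 in the control plasmid libraries. MCM6 made up 7.6% ± 0.271 in the SMN1-labelled libraries and 6.32% ± 0.0826 in the control plasmid libraries. For both genes the shares of the groups did not overlap. MCM7 made up 22.8% ± 0.17 in the SMN1-labelled libraries and 23.9% ± 0.168 in the control plasmid libraries. MCM2 made up 12% ± 0.0625 in the SMN1-labelled libraries and 11.1% ± 0.443 in the control plasmid libraries. These shares did not overlap either. MCM4 made up 7.76% ± 0.396 in the SMN1-labelled libraries and 7.35% ± 0.217 in the control plasmid libraries. MCM3 made up 45% ± 0.596 in the SMN1-labelled libraries and 45.1% ± 0.799 in the control plasmid libraries. The libraries of the groups overlapped in both of these shares. These shares were not tested, and a larger share does not show that a transcript was more abundant. MCM6 itself had 22, 23.4 and 23.5 FPKM in the SMN1-labelled libraries, against 23, 23.2 and 23.2 FPKM in the control plasmid libraries, with overlapping groups.

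**Figure D2:**
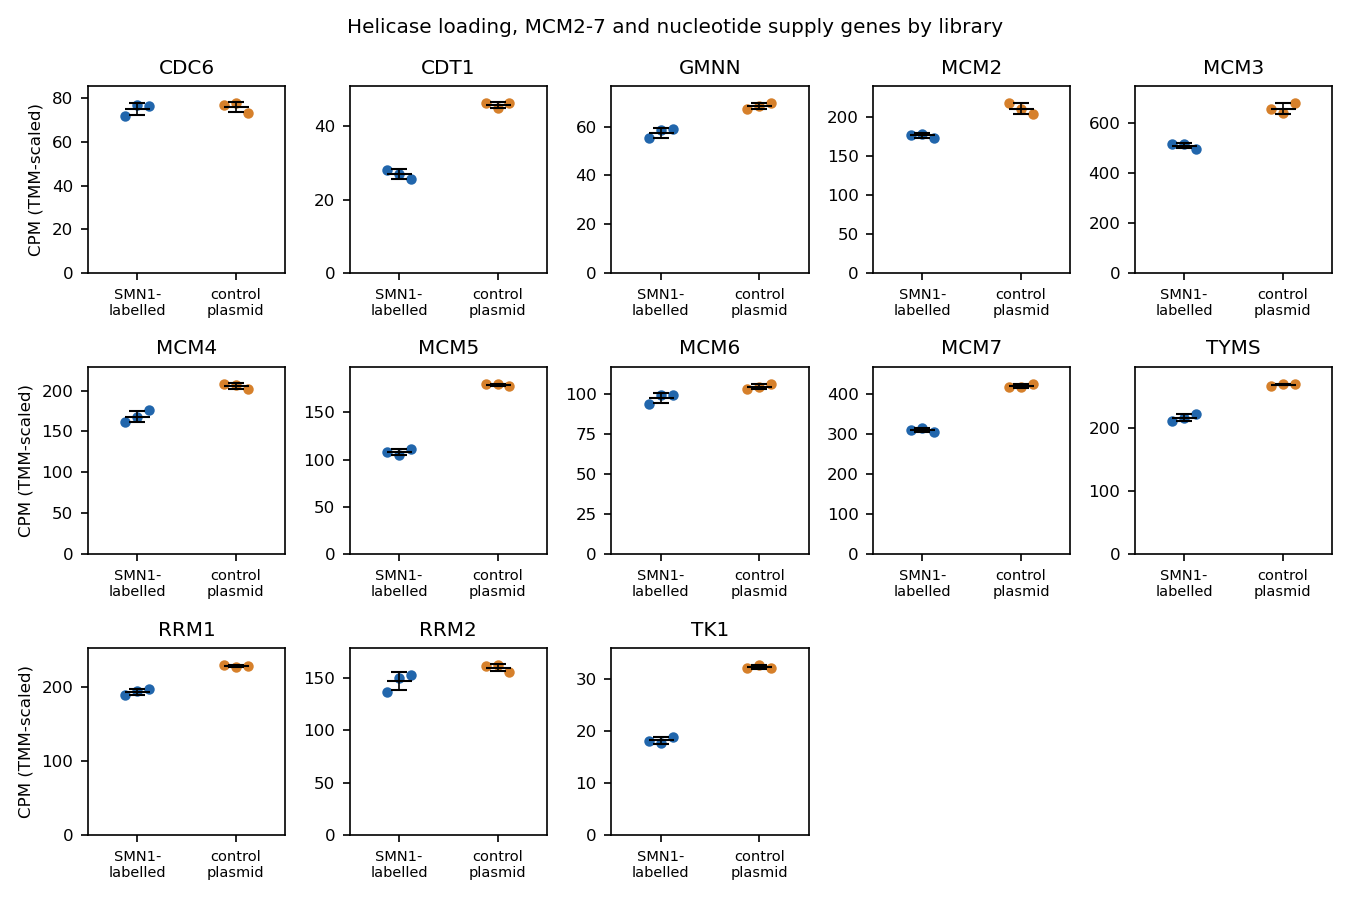
TMM-scaled CPM of the helicase loading, MCM2-7 and nucleotide supply genes (vertical axes, starting at 0) in the 3 SMN1-labelled libraries (left, blue) and the 3 control plasmid libraries (right, orange). Points are libraries, and bars are the mean and 1 SD. The groups are apart in every panel but that of CDC6, most widely for TK1, CDT1 and MCM5 and most narrowly for MCM6 and RRM2.

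Helicase activation genes were lower in 4 of 6 cases. GINS2 (chr16:85676198-85690073, minus strand), a subunit of the GINS complex that locks CDC45 to the ring, had 16.4, 17.4 and 16.6 CPM in the SMN1-labelled libraries, against 27.8, 28.9 and 29 CPM in the control plasmid libraries. The groups were far apart, and GINS2 was 1.7-fold lower (log2 fold change -0.76 with SE 0.053, edgeR adjusted p = 2.51e-11). CDC45, the helicase cofactor that GINS holds in place, averaged 67.5 ± 1.84 CPM in the SMN1-labelled group and 96.1 ± 3.15 CPM in the control plasmid group, 1.42-fold lower. GINS3 averaged 16.5 ± 1.11 CPM in the SMN1-labelled group and 22.3 ± 0.678 CPM in the control plasmid group, 1.35-fold lower. GINS4 averaged 19.2 ± 0.495 CPM in the SMN1-labelled group and 23.8 ± 0.261 CPM in the control plasmid group, 1.23-fold lower. In none of these did the groups overlap. GINS1, the remaining GINS subunit, averaged 22 ± 0.798 CPM in the SMN1-labelled group and 20.6 ± 0.607 CPM in the control plasmid group. MCM10, which helps the helicase to start, averaged 65.9 ± 2.31 CPM in the SMN1-labelled group and 67.9 ± 0.592 CPM in the control plasmid group. Neither was called on counts (edgeR adjusted p = 0.14 and 0.368). GINS1 was called higher on FPKM, with and without the filter, and MCM10 was called lower after the length and GC correction (log2 fold change -0.23).

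In polymerase alpha-primase, which makes the RNA-DNA primers, 2 of 4 genes were called lower. POLA2 (chr11:65261762-65305589, plus strand), the accessory subunit that tethers the polymerase to the fork, had 19, 19.3 and 18.8 CPM in the SMN1-labelled libraries, against 30.4, 30.6 and 29.5 CPM in the control plasmid libraries. It was 1.58-fold lower without overlap (log2 fold change -0.66 with SE 0.05, edgeR adjusted p = 9.67e-11), and 35.1% of its exon bases are shared with a same-strand gene. POLA1, the catalytic subunit, averaged 31.2 ± 2.03 CPM in the SMN1-labelled group and 30.8 ± 1.41 CPM in the control plasmid group and was not called (edgeR adjusted p = 0.797). The deposited FPKM of POLA1 imply a gene length 2.60 times that of its annotated exons, the largest such ratio among the 50. Its direction turned to a called decrease after the length and GC correction (log2 fold change -0.19). PRIM2, the large primase subunit, averaged 9.13 ± 0.381 CPM in the SMN1-labelled group and 11.2 ± 1.19 CPM in the control plasmid group. It was called lower (edgeR adjusted p = 0.00403), but not on FPKM. PRIM1, the catalytic primase subunit, averaged 9.51 ± 0.215 CPM in the SMN1-labelled group and 10.6 ± 0.284 CPM in the control plasmid group. It was not called (edgeR adjusted p = 0.072), except with upper-quartile scaling and after the length and GC correction.

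The replicative polymerases gave 2 calls among 5 genes. POLD2 (chr7:44114681-44124358, minus strand), an accessory subunit of polymerase delta, had 79.97, 78.4 and 73.7 CPM in the SMN1-labelled libraries, against 103, 101 and 103 CPM in the control plasmid libraries. Its groups did not overlap, and it was 1.32-fold lower (log2 fold change -0.40, edgeR adjusted p = 4.22e-09), or -0.19 on the log2 scale after the length and GC correction. POLE, the catalytic subunit of the leading-strand polymerase epsilon, averaged 62.4 ± 2.08 CPM in the SMN1-labelled group and 81.8 ± 1.19 CPM in the control plasmid group, 1.31-fold lower. POLD1, the catalytic subunit of polymerase delta, averaged 67 ± 4.47 CPM in the SMN1-labelled group and 71.2 ± 6.84 CPM in the control plasmid group, with overlapping libraries. It was called lower when control plasmid library 2 was left out (log2 fold change -0.15, edgeR adjusted p = 0.0354) and in no other alternative, and the length and GC correction turned it to 0.10 without a call. POLD3, another delta subunit, averaged 45 ± 0.458 CPM in the SMN1-labelled group and 47 ± 0.58 CPM in the control plasmid group. It was called lower only after the length and GC correction (log2 fold change -0.25). POLE2, an epsilon subunit, had the lowest level of the 50 genes in CPM, 1.77 ± 0.125 CPM in the SMN1-labelled group and 1.68 ± 0.252 CPM in the control plasmid group, and was called in no alternative.

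The sliding clamp and its loader gave 4 lower calls and 1 higher call among 6 genes. PCNA (chr20:5114953-5126626, minus strand), the clamp that holds polymerases on DNA, had 64.6, 66 and 65.2 CPM in the SMN1-labelled libraries, against 85.9, 85.2 and 85.4 CPM in the control plasmid libraries. The libraries of each group lay close together and the groups did not overlap, and PCNA was 1.31-fold lower (log2 fold change -0.39 with SE 0.037, edgeR adjusted p = 3.46e-09). The annotation also holds 3 named PCNA pseudogenes, so reads could be shared. RFC1 (chr4:39287456-39366375, minus strand), the large subunit of the clamp loader, had 43.4, 46.5 and 45.4 CPM in the SMN1-labelled libraries, against 38.8, 42.2 and 40.4 CPM in the control plasmid libraries. It was 1.12-fold higher without overlap (edgeR adjusted p = 0.00461), but after the length and GC correction its log2 fold change was -0.075 (edgeR adjusted p = 0.138). RFC5, a small subunit of the loader, averaged 17.6 ± 0.872 CPM in the SMN1-labelled group and 23.5 ± 0.389 CPM in the control plasmid group, 1.34-fold lower. RFC2, another, averaged 107 ± 5.61 CPM in the SMN1-labelled group and 134 ± 13 CPM in the control plasmid group, 1.25-fold lower. The call on RFC2 was lost after the length and GC correction and on unfiltered FPKM. RFC4 averaged 27.7 ± 0.516 CPM in the SMN1-labelled group and 30.8 ± 2.78 CPM in the control plasmid group with overlapping libraries. Its call (edgeR adjusted p = 0.0263) was lost without control plasmid library 2, control plasmid library 3 or SMN1-labelled library 3 (edgeR adjusted p = 0.0831, 0.207 and 0.0702), with DESeq2, with no filter on low counts and on FPKM. RFC3 averaged 12.7 ± 0.597 CPM in the SMN1-labelled group and 13.1 ± 0.27 CPM in the control plasmid group and was not called.

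Replication protein A coats single-stranded DNA at the fork, and its smallest subunit moved most. RPA3 (chr7:7636518-7718607, minus strand) had 30.2, 29.9 and 30.2 CPM in the SMN1-labelled libraries, against 42.1, 40 and 44.3 CPM in the control plasmid libraries. It was 1.4-fold lower without overlap (log2 fold change -0.49 with SE 0.046, edgeR adjusted p = 4.8e-09). RPA2, the middle subunit, averaged 88.3 ± 4.88 CPM in the SMN1-labelled group and 110.0 ± 3.75 CPM in the control plasmid group, 1.25-fold lower. RPA1, the large DNA-binding subunit, averaged 68.9 ± 2.82 CPM in the SMN1-labelled group and 72.6 ± 1.08 CPM in the control plasmid group. RPA1 was not called (edgeR adjusted p = 0.103), except without SMN1-labelled library 3 (log2 fold change -0.11, edgeR adjusted p = 0.0361) and after the length and GC correction.

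Both genes for joining Okazaki fragments were lower. FEN1 (chr11:61792637-61797244, plus strand), the nuclease that trims the displaced flap, had 142, 142 and 139.6 CPM in the SMN1-labelled libraries, against 218, 211 and 214 CPM in the control plasmid libraries. The groups were far apart, and FEN1 was 1.51-fold lower (log2 fold change -0.60 with SE 0.034, edgeR adjusted p = 6.82e-13). LIG1, the ligase that seals the nick, averaged 145 ± 0.498 CPM in the SMN1-labelled group and 184 ± 1.97 CPM in the control plasmid group, 1.27-fold lower.

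All 4 nucleotide supply genes were called lower, by very different amounts, and in each the groups did not overlap in CPM. TK1 (chr17:78174075-78187233, minus strand), the cytosolic thymidine kinase of cycling cells, had 18, 17.6 and 18.8 CPM in the SMN1-labelled libraries, against 31.9, 32.6 and 32.1 CPM in the control plasmid libraries. It was 1.78-fold lower, the largest fold among the 50 (log2 fold change -0.83 with SE 0.051, edgeR adjusted p = 2.53e-12). TYMS (chr18:657604-673578, plus strand), thymidylate synthase, had 211, 215 and 222 CPM in the SMN1-labelled libraries, against 267, 269 and 269 CPM in the control plasmid libraries. It was 1.24-fold lower (log2 fold change -0.31, edgeR adjusted p = 2.91e-08), or -0.18 on the log2 scale after the length and GC correction. Of its exon bases 46.6% overlap genes on the opposite strand, and the strand setting of the counting is not given in the sources.

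Ribonucleotide reductase turns ribonucleotides into deoxyribonucleotides, and RRM1 and RRM2 encode its large and small subunits. RRM1 (chr11:4094707-4138876, plus strand) had 189, 195 and 198 CPM in the SMN1-labelled libraries, against 230.4, 228 and 229 CPM in the control plasmid libraries. It was 1.18-fold lower (log2 fold change -0.24, edgeR adjusted p = 1.66e-06). RRM2 (chr2:10120698-10131419, plus strand), the subunit whose level follows the cell cycle, had 137, 150.1 and 153 CPM in the SMN1-labelled libraries, against 161, 162 and 156 CPM in the control plasmid libraries. Its groups nearly touched, and it was 1.09-fold lower (log2 fold change -0.12, edgeR adjusted p = 0.0115). The call on RRM2 was lost without control plasmid library 2 or SMN1-labelled library 1 (edgeR adjusted p = 0.051 and 0.0852) and on FPKM. After the length and GC correction the log2 fold change was -0.24 for RRM2 (edgeR adjusted p = 8.78e-06) and -0.36 for RRM1. The annotation holds 3 named RRM2 pseudogenes, and 20.2% of the exon bases of RRM2 are shared with a same-strand gene. The deposited FPKM of RRM2 imply a gene length 1.82 times that of its annotated exons, which lowers the ratio below in both groups. RRM2 over RRM1, as a ratio of FPKM within a library, was 0.334, 0.355 and 0.358 in the SMN1-labelled libraries, against 0.323, 0.328 and 0.314 in the control plasmid libraries. The 3 SMN1-labelled ratios were above the 3 control plasmid ratios, by 0.12 on the log2 scale (exact permutation test, two-sided, p = 0.1, the smallest that 3 against 3 allows).

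Among the members, the 2 E2F activators and 2 of the 3 genes for maintenance methylation and histone mRNA were called lower on counts. After the length and GC correction, 1 gene of each of these roles, E2F1 and UHRF1, was still called lower. This did not extend to regulators outside the members, described below. There the E2F and retinoblastoma network gave 1 lower and 9 higher calls among 16 genes on counts. S-phase entry and licensing turnover gave 3 lower and 3 higher among 11. E2F1 (chr20:33675683-33686404, minus strand), an activator of replication genes and itself an E2F target, had 29, 29.5 and 28.6 CPM in the SMN1-labelled libraries, against 43, 42 and 44.2 CPM in the control plasmid libraries. It was 1.48-fold lower without overlap (log2 fold change -0.57 with SE 0.044, edgeR adjusted p = 1.59e-10). E2F2, a second activator, averaged 22.2 ± 0.806 CPM in the SMN1-labelled group and 25.8 ± 0.808 CPM in the control plasmid group, 1.16-fold lower, a call that was lost on FPKM and after the length and GC correction. SLBP (chr4:1692800-1712555, minus strand), which binds the stem-loop of replication-dependent histone mRNAs, had 84.9, 83.4 and 86.7 CPM in the SMN1-labelled libraries, against 101, 100.5 and 103 CPM in the control plasmid libraries. It was 1.19-fold lower without overlap (log2 fold change -0.26, edgeR adjusted p = 1.98e-06), and -0.071 on the log2 scale after the length and GC correction (edgeR adjusted p = 0.0903). UHRF1, which reads hemimethylated DNA behind the fork, averaged 186 ± 8.04 CPM in the SMN1-labelled group and 222 ± 7.45 CPM in the control plasmid group, 1.19-fold lower. DNMT1, the maintenance methyltransferase that UHRF1 recruits, averaged 532 ± 6.89 CPM in the SMN1-labelled group and 543 ± 12.4 CPM in the control plasmid group and was not called (edgeR adjusted p = 0.472).

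Transcript composition moved with the comparison over the whole transcriptome. Across the 15663 tested genes with an annotated sequence, the log2 fold change had a Spearman rho of -0.43 with GC content and 0.34 with joined exon length. Across the 50 members rho was -0.62 with GC content and 0.31 with length. These are descriptions across genes of the same 6 libraries, and genes are not independent replicates. Among the 25 members of lower GC content (37.7% to 47.9%), 13 were called lower and 2 higher, with a median log2 fold change of -0.12. Among the 25 of higher GC content (48.1% to 65.0%), 22 were called lower and none higher, with a median of -0.35. Over all tested genes in 10 equal bins of GC content, the median log2 fold change was 0.23 in the lowest bin and -0.25 in the highest. The shares of all tested genes called within the 2 GC ranges of the members are not given here, so these counts do not separate the members from that trend. Both members called higher, ORC2 and RFC1, were in the lower-GC group, and TK1, CDT1 and E2F1 were among those richest in GC. POLD1, the richest in GC of the 50 at 65.0%, was not called (log2 fold change -0.086).

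**Figure D3:**
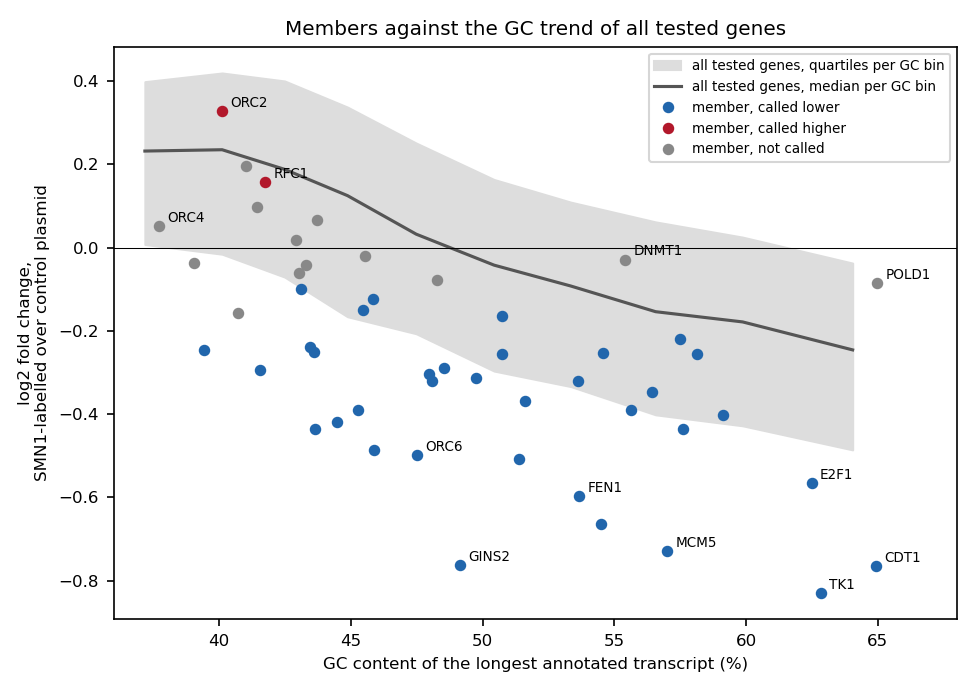
Log2 fold change of the 50 genes, SMN1-labelled over control plasmid libraries (vertical axis), against the GC content of the longest annotated transcript in percent (horizontal axis). The line is the median of all tested genes in each of 10 equal bins of GC content, and the grey band spans their quartiles. Points are members, coloured by call. Of the 50, 47 lie below the median of their own GC bin, and ORC2, POLD1 and DNMT1 do not.

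The members were low for their composition as well. Of the 50 genes, 47 lay below the median of tested genes in their own GC bin, and the median distance from it over the 50 was -0.27 on the log2 scale. When length and GC content were corrected within each library, 38 members were called lower, none was called higher and 12 were not called. Over the 15663 genes in that fit, 22.8% were called lower and 26% higher. Of the 35 members called lower on counts, 31 were still called lower. ORC1, RFC2, E2F2 and SLBP were lost, and ORC4, CDC6, MCM10, POLA1, PRIM1, POLD3 and RPA1 were gained. The largest decreases shrank for the GC-rich genes, to -0.48 for CDT1, -0.48 for TK1 and -0.25 for E2F1 on the log2 scale. GINS2 at -0.69, MCM5 at -0.65 and POLA2 at -0.60 were then the lowest of the 50. FEN1 moved to -0.38 and RPA2 to -0.20, both nearer zero than on counts, while PRIM2 moved to -0.47 and ORC3 to -0.38, both further below it. GINS1 turned to -0.049 and DNMT1 to 0.02, neither called.

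On counts the wider set of replication and S-phase genes was split between directions. Of 86 further genes of origin firing, fork protection, chromatin assembly, nucleotide metabolism and E2F control, 26 were called lower, 25 higher and 35 neither, shares close to those over all tested genes. Their median log2 fold change was 0.03. After the length and GC correction, 29 of the 86 were called lower and 18 higher. Over all 15663 genes in that fit, 22.8% were called lower and 26% higher, so the shares were less alike than on counts. Corrected values below are log2 fold changes from that fit. Chromatin assembly genes were called lower in 6 of 10 cases and higher in 1, and after the correction in 8 of 10 and in none. CHAF1B, a subunit of the chromatin assembly factor that follows PCNA, averaged 22.7 ± 0.776 CPM in the SMN1-labelled group and 38.1 ± 0.388 CPM in the control plasmid group, 1.67-fold lower (log2 fold change -0.74, corrected -0.78). SUPT16H, a subunit of the FACT histone chaperone, averaged 1083 ± 29.1 CPM in the SMN1-labelled group and 915 ± 24.8 CPM in the control plasmid group, 1.18-fold higher (log2 fold change 0.24, corrected 0.058 and no longer called).

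Fork protection and checkpoint genes gave 4 lower and 4 higher calls among 15, and 7 lower and 1 higher after the correction. TIMELESS, which holds helicase and polymerase together, averaged 323 ± 4.02 CPM in the SMN1-labelled group and 529.9 ± 3.31 CPM in the control plasmid group and was 1.64-fold lower (log2 fold change -0.71, corrected -0.70, edgeR adjusted p = 1.45e-14). RAD1, part of the checkpoint clamp, averaged 12.9 ± 0.702 CPM in the SMN1-labelled group and 8.96 ± 1.17 CPM in the control plasmid group and was 1.44-fold higher (log2 fold change 0.52, corrected 0.30). Among 12 origin firing genes 4 were lower and 4 higher, and after the correction 4 lower and 1 higher. RECQL4, a helicase needed to start replication, averaged 27.6 ± 2.26 CPM in the SMN1-labelled group and 41.6 ± 2.75 CPM in the control plasmid group, 1.51-fold lower (log2 fold change -0.60, corrected -0.37). MCM9, a relative of MCM2-7 that acts in repair, averaged 8.58 ± 0.393 CPM in the SMN1-labelled group and 5.83 ± 0.149 CPM in the control plasmid group, 1.47-fold higher (log2 fold change 0.56, corrected 0.30). Of 12 other nucleotide metabolism genes 4 were lower and 3 higher, and after the correction 3 lower and 5 higher. CMPK1, a pyrimidine nucleotide kinase, averaged 19 ± 0.606 CPM in the SMN1-labelled group and 14.9 ± 0.518 CPM in the control plasmid group, 1.28-fold higher (log2 fold change 0.35, corrected 0.21).

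The E2F and retinoblastoma network gave 1 lower and 9 higher calls among 16 genes, and after the length and GC correction none lower and 5 higher. E2F3, the third activator of the family, averaged 61.8 ± 1.79 CPM in the SMN1-labelled group and 50.04 ± 1.28 CPM in the control plasmid group and was 1.24-fold higher (log2 fold change 0.31, corrected 0.18, edgeR adjusted p = 8.48e-07). MYBL2, a G1/S target of E2F that also works with the MuvB complex, averaged 537 ± 33.4 CPM in the SMN1-labelled group and 671 ± 26 CPM in the control plasmid group, 1.25-fold lower (log2 fold change -0.32, corrected -0.041 and no longer called). Among 11 genes of S-phase entry and licensing turnover 3 were lower and 3 higher, and after the correction 2 lower and 4 higher. DTL, the adaptor that marks CDT1 for destruction at PCNA, averaged 21.4 ± 0.592 CPM in the SMN1-labelled group and 25.5 ± 0.901 CPM in the control plasmid group, 1.19-fold lower (log2 fold change -0.25, corrected -0.43). CUL4A, the scaffold of the same ubiquitin ligase, averaged 99.9 ± 1.45 CPM in the SMN1-labelled group and 78.7 ± 2.4 CPM in the control plasmid group, 1.27-fold higher (log2 fold change 0.34, corrected 0.11). Small polymerase subunits gave 2 lower calls among 4, and 2 lower and 1 higher after the correction, with POLE4, of polymerase epsilon, at 10.1 ± 0.833 CPM in the SMN1-labelled group and 14.4 ± 0.563 CPM in the control plasmid group (log2 fold change -0.51, corrected -0.33). RNA primer removal and topoisomerase genes gave 2 lower calls and 1 higher call among 6, and 3 lower and 1 higher after the correction. RNASEH2C, a subunit of the RNase that removes RNA from DNA, averaged 95.5 ± 6.07 CPM in the SMN1-labelled group and 114 ± 4.57 CPM in the control plasmid group, 1.2-fold lower (log2 fold change -0.26, corrected -0.15). TOP1, which relieves twist ahead of the fork, averaged 448 ± 10.7 CPM in the SMN1-labelled group and 379 ± 8.36 CPM in the control plasmid group, 1.18-fold higher (log2 fold change 0.24, corrected 0.13).

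**Figure D4:**
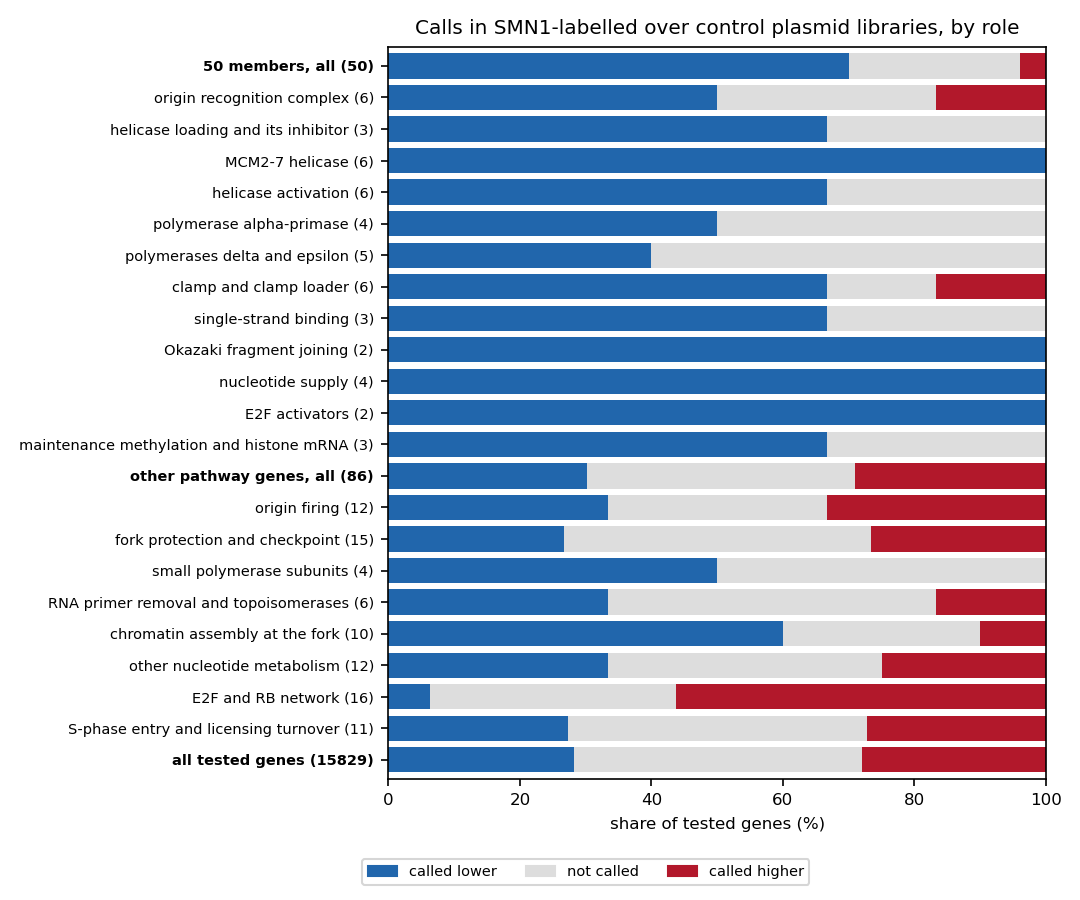
Share of tested genes called lower, not called and called higher in SMN1-labelled over control plasmid libraries (horizontal axis, percent), by role. Bars give the 50 genes, the 86 further replication and E2F genes and all 15829 tested genes, with the number tested in brackets. The 50 genes have 35 lower and 2 higher calls, the 86 further genes 26 and 25, and all tested genes 4466 and 4426.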

How the data were processed

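Per the labels' protocols, DNase-treated total RNA was turned into stranded mRNA libraries and sequenced in pairs on an Illumina NovaSeq 6000. The submitters' processing notes name GRCh38, HISAT2 and DESeq2 and no version. How reads were counted, with which strand setting and annotation, and how multi-mapped reads were treated is not given in the sources. The deposited table of counts holds unnormalized whole reads for 28862 genes, and in the deposited FPKM table the authors scaled values by length and depth.

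The test on counts was the quasi-likelihood test of edgeR 4.0.16 (R 4.3.3) after TMM scaling and filterByExpr at its defaults. Group was the sole term, tests were two-sided, and p-values were Benjamini-Hochberg adjusted over all 15829 genes and called at 0.05. SE is the size of the log2 fold change divided by the root of F. With 30379242 to 40275498 reads in a library, the 3 reads that a count of 0 allows equal 0.0721 to 0.103 CPM, counting error only. Libraries of a group differed beyond counting noise (chi-square over degrees of freedom 2.41 to 4.12), and none was taken as a repeat.

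Genes given library by library are the called member with the smallest adjusted p of each role and direction, plus all of MCM2-7, helicase loading and nucleotide supply. The same rule by role named genes from the wider list of 86. A gene that it named there is not reported here. Members, roles and lists were chosen with earlier results of these data known. GENCODE v29 (GRCh38) gave coordinates, exon length and, for the longest transcript, GC content, which 15663 tested genes had. Both properties were corrected within each library by splines with 5 degrees of freedom, as edgeR offsets. Promoters are RefSeq's on GRCh38.p14. The 2 FPKM ratios had exact permutation tests. Of these steps, the edgeR test on counts was tried on simulated data with known fold changes.

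The 18 alternatives were DESeq2 1.42.0, limma-voom (limma 3.58.1), other scaling factors, other filters, a replicate block, each library left out, log2(FPKM + 0.1) and log2(FPKM + 1) in limma at 0.5 FPKM or more and the latter unfiltered, the length and GC correction, and removal of ribosomal protein and mitochondrial genes. The log2(FPKM + pseudocount) scale understates changes of low genes. Reads of overlapping genes, or of the 8 members with named pseudogenes, could be shared.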

Additional observations from a re-analysis of the deposited data

How the results depend on the processing

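Over 18 alternatives, 27 to 38 of the 50 members were called lower, against 35 on counts with edgeR, and 26 were called lower in all 18. Among all tested genes the lower calls ranged from 2883 of 28501, on unfiltered log2(FPKM + 1), to 4671 of 15829, with upper-quartile factors. The share of all genes called lower in all 18 is not given here. POLE2, RFC3 and DNMT1 were called in none, and their sign changed between alternatives. Leaving out 1 library gave 31 to 35 lower calls among the members, and 4049 of 16035 to 4346 of 16047 among all tested genes. Members called higher numbered 4 with log2(FPKM + 0.1) and 4 with log2(FPKM + 1), against 2 on counts, and 0 after the length and GC correction. That correction turned ORC4 to -0.21, POLA1 to -0.19, RFC1 to -0.075 and GINS1 to -0.049 on the log2 scale, and POLD1 to 0.10 and DNMT1 to 0.020, and the cause was not tested. Over all genes, 2883 were called lower with log2(FPKM + 1) without the filter, against 4466 on counts, and the cause was not tested.

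With the replicate number as a block, 35 members were called lower and 2 higher, and over all genes 4382 were lower and 4326 higher. Deviations of same-numbered libraries from their group means correlated at 0.0053, 0.013 and 0.0030, so no pairing by number was seen in the counts. Such values cannot exclude that same-numbered libraries share a culture or day, which the labels do not state. The weakest lower calls, lost under several alternatives, were those of ORC1 (10 of 18), ORC3 (8), RFC4 (8), MCM6 (7) and RRM2 (5). Depth limits POLE2 most, at 43 reads in its lowest library.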
